A study of Mus musculus with 15 samples.

Results

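The interferon response genes examined here are 43 mouse genes of the antiviral and antigen-processing programme that interferons switch on. They were chosen by name, and 40 of them were read by at least 1 probe set that the array's annotation assigns to that gene alone, out of 18194 genes measured in this way. Isg15, Oas1g and Ifi44 were not matched to such a probe set and were not analysed here. For each gene the probe set with the highest mean level was used.

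RNA from LSK cells was hybridised to 15 arrays, each holding 1 sample. LSK cells are the lineage-negative, Sca1-positive and Kit-positive fraction of C57BL6 mouse bone marrow that holds blood stem and early progenitor cells. All samples, wild type included, received an MSCV retrovirus encoding Cre recombinase and GFP, were grown in Stemspan medium with cytokines, and were sorted for GFP. The genotypes concern Apc, a scaffold of the complex that degrades beta-catenin. They were wt/wt (6 samples, wild type), 15lox/15lox (3, both alleles floxed), 15lox/1638N (3, a floxed and the hypomorphic 1638N allele) and 15lox/1572T (3, a floxed and the hypomorphic 1572T allele). The sources used here do not give the age of the mice, the time from virus to harvest or whether replicates came from separate animals. The p-values therefore refer to sample spread, which may be technical. Cells without virus were not analysed here.

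Type I interferons bind a receptor made of Ifnar1 and Ifnar2, whose kinases Jak1 and Tyk2 phosphorylate Stat2 among others. A complex that holds Stat2 and Irf9 binds the interferon-stimulated response element, while type II interferon acts through Ifngr1 and Ifngr2 on genes with gamma-activated sites. Blood stem cells are known to respond to both types, and to hold part of this programme at a basal level.

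Values are log2 levels, with array medians from 6.65 to 6.84. Precision is limited by how few arrays each genotype has. Wild-type arrays 4 to 6 are the control throughout unless stated. At 96.7% of the 45101 probe sets, and for all 40 members, arrays 1 to 3 averaged to within 0.05 of the average of arrays 4 to 6. Identical values in all 3 were found at 18.2% of probe sets for arrays 1 to 3 and at 0.0177% for arrays 4 to 6. The first 3 therefore do not add an independent control, and results with all 6 are given as a second value. The 4 probe sets of Apc disagreed. The one of highest mean level, which stands for Apc in the fit, read 9.57 to 9.85 on wild-type arrays 4 to 6 and 10.23 to 10.66 in 15lox/15lox, and it rose there (log2 fold change 0.77 ± 0.13, adjusted p = 0.0072), against the direction of a deletion. The other 3 were lower in 15lox/15lox without overlap. The highest-reading of these read 9.61 to 9.93 in wild type, 5.58 to 6.10 in 15lox/15lox, 8.47 to 8.67 in 15lox/1638N and 8.64 to 8.96 in 15lox/1572T. Which probe sets lie in the floxed part was not analysed here. Axin2, a target of beta-catenin, read 7.26 to 7.57 in wild type, 11.94 to 12.29 in 15lox/15lox, 11.10 to 11.51 in 15lox/1638N and 7.69 to 9.32 in 15lox/1572T. Stem and progenitor markers were high on every array, with Cd34 at 13.26 to 13.61 and Kit at 10.75 to 11.54. Markers of mature lineages were also read: over the 12 arrays the list means ran from 9.54 to 10.84 for monocytes, 8.79 to 9.76 for erythroid cells and megakaryocytes, 8.62 to 9.06 for neutrophils and up to 9.68 for mast cells, and were lower for B cells (6.42 to 7.45) and for T and natural killer cells (6.48 to 7.20). Xist set 1 array of 15lox/1638N, 1 of 15lox/1572T and 2 of 15lox/15lox apart as female type, whereas wild-type arrays 4 to 6 were of male type. On wild-type arrays 1 to 3 Xist read 9.63, 9.88 and 3.62. These values lie outside those of both types on the other arrays, so no type is given for them.

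Promoter sequences were matched for 31 of the 40 measured members in RefSeq (build GRCm38.p6), each from 250 bases before to 50 after an annotated start. The letters GAAANNGAAA, the core of the interferon-stimulated response element, were searched on both strands, with overlapping matches counted. They occurred in at least 1 promoter of 14 of the 31 members (45.2%), against 3.99% of all 27025 genes with such sequence. The gamma-activated site letters TTCNNNGAA, which read the same on both strands, occurred for 8 of 31 (25.8%), against 9.55% of genes. A match describes the sequence and is not evidence of binding. The 3 promoters printed first belong to members whose levels are followed below, and capitals mark the response element letters, written on the gene's strand, so that a match on the other strand reads TTTCNNTTTC.
Rsad2 (chr12:26456403-26456702, minus strand): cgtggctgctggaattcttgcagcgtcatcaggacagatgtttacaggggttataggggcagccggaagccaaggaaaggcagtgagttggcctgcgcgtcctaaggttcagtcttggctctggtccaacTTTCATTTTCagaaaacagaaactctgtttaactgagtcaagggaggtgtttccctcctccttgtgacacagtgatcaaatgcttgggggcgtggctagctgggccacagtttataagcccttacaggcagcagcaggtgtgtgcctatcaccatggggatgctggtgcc
Ddx58 (chr4:40239776-40240075, minus strand): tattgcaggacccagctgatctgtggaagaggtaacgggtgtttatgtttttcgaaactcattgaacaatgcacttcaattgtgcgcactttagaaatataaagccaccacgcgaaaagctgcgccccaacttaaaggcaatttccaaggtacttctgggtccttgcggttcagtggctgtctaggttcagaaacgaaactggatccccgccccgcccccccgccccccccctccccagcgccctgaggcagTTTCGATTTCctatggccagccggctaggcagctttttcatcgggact
Ifit3 (chr19:34583279-34583578, plus strand): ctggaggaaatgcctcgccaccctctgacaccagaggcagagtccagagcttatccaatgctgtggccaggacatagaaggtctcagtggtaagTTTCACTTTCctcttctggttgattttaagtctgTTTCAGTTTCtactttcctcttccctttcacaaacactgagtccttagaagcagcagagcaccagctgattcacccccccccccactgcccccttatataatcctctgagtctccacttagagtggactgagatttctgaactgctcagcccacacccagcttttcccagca
Counted from the start, the match began at position -120 in Rsad2 and 3 in Ddx58, and the 2 matches of Ifit3 began at -156 and -122. Isg20 and Irf1, whose results lead the sections below, held none of these letters in the windows searched, but each had a promoter with the gamma-activated site letters, shown here in capitals.
Isg20 (chr7:78913174-78913473, plus strand, 1 of 3 starts): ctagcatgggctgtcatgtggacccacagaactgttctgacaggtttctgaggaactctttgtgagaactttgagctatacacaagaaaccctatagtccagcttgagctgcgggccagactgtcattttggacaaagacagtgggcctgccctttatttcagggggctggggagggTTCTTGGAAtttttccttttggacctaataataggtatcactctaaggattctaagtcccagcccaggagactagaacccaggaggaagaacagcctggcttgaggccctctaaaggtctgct
Irf1 (chr11:53769764-53770063, plus strand, 1 of 2 starts): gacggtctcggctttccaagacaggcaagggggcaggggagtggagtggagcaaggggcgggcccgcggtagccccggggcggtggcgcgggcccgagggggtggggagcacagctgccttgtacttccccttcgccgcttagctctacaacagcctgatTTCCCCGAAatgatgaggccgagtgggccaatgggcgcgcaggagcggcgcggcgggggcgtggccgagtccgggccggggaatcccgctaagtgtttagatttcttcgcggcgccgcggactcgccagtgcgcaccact
The matches began at position -73 in Isg20 and -90 in Irf1. Samd9l, the other gene that passed the test, had neither set of letters in its window.

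The programme as a whole was lowest in 15lox/1638N cells, and it differed between arrays of the same genotype. To place each array, every member's level was set against its own mean over the 12 arrays, and the median over the 40 members was taken. That median was 0.07, 0.07 and 0.32 on wild-type arrays 4, 5 and 6, and 0.20, -0.00 and -0.04 on arrays 1, 2 and 3 of 15lox/1572T. It was 0.06, -0.18 and 0.12 in 15lox/15lox, and -0.26, -0.51 and -0.01 in 15lox/1638N. The group means were 0.15 ± 0.15 (SD, n = 3) in wild type, 0.05 ± 0.13 in 15lox/1572T, 0.00 ± 0.16 in 15lox/15lox and -0.26 ± 0.25 in 15lox/1638N. Array 3 of 15lox/1638N lay within the range of the other mutant groups, so the low position of that group rests on arrays 1 and 2. Array 3 was also the 1 array of female type in that group (Xist at 13.76, against 7.815 and 7.711 on arrays 1 and 2). The part of sex in these medians was not tested. The same median over all genes stayed between -0.05 and 0.04 on these 12 arrays.

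**Figure D1:**
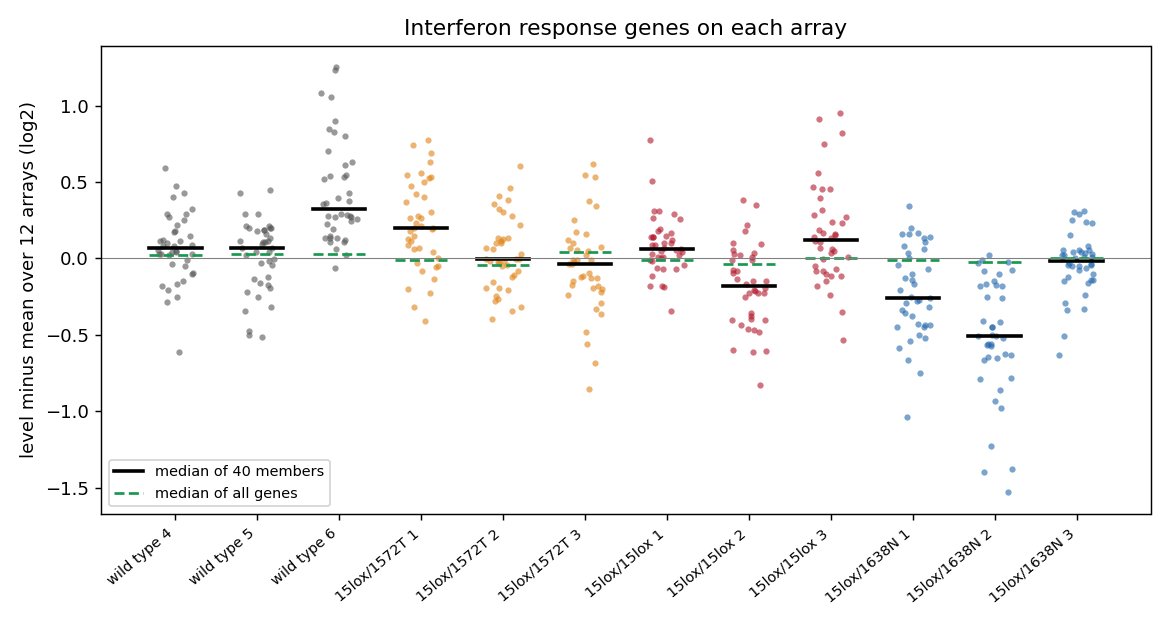
Each point is 1 of the 40 members, plotted as its log2 level minus its mean over the 12 arrays, for wild-type arrays 4 to 6 and the 3 arrays of each mutant genotype; black bars are the member medians and green dashed bars the medians of all genes. Wild-type array 6 has the highest member median (0.32) and array 2 of 15lox/1638N the lowest (-0.51).

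A pair of arrays held the extremes. Array 2 of 15lox/1638N had the lowest value of the 12 arrays for 22 of 40 members (55%), and it also had the lowest value for 13.4% of all genes. Wild-type array 6 had the highest value for 19 members (47.5%) against 11.9% of all genes. On array 2 of 15lox/1638N 39 members lay below their own mean, and on wild-type array 6 only 1 did. Wild-type array 3, outside the main control, had a median of 0.31, while arrays 1 and 2 had 0.08 and 0.07.

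Within a genotype the members varied more than most genes. The median SD within groups was 0.27 for members and 0.16 for all genes, and 33 of 40 members were above the median of all genes. Rsad2 (0.63), Ifit1 (0.61), Zbp1 (0.60) and Oas3 (0.60) had the widest spread, each at or above percentile 99 of all genes. Psmb8 (0.06) and Trim25 (0.08), both at high levels, had the narrowest. Over the 12 arrays 30 members had a correlation above 0.5 with the mean of the other members, and 20 had one above 0.7. The median correlation was 0.70, and 0.71 after each group's mean was removed. Of all genes 7.78% also exceeded 0.7 with the mean of the members. The source of this correlation was not tested. Oasl2 (0.99), Stat2 (0.93), Isg20 (0.92) and Xaf1 (0.92) followed that mean most closely. Ifit2 (-0.19), Irgm1 (-0.08), Oas2 (0.11) and Gbp3 (0.13) did not follow it.

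**Figure D2:**
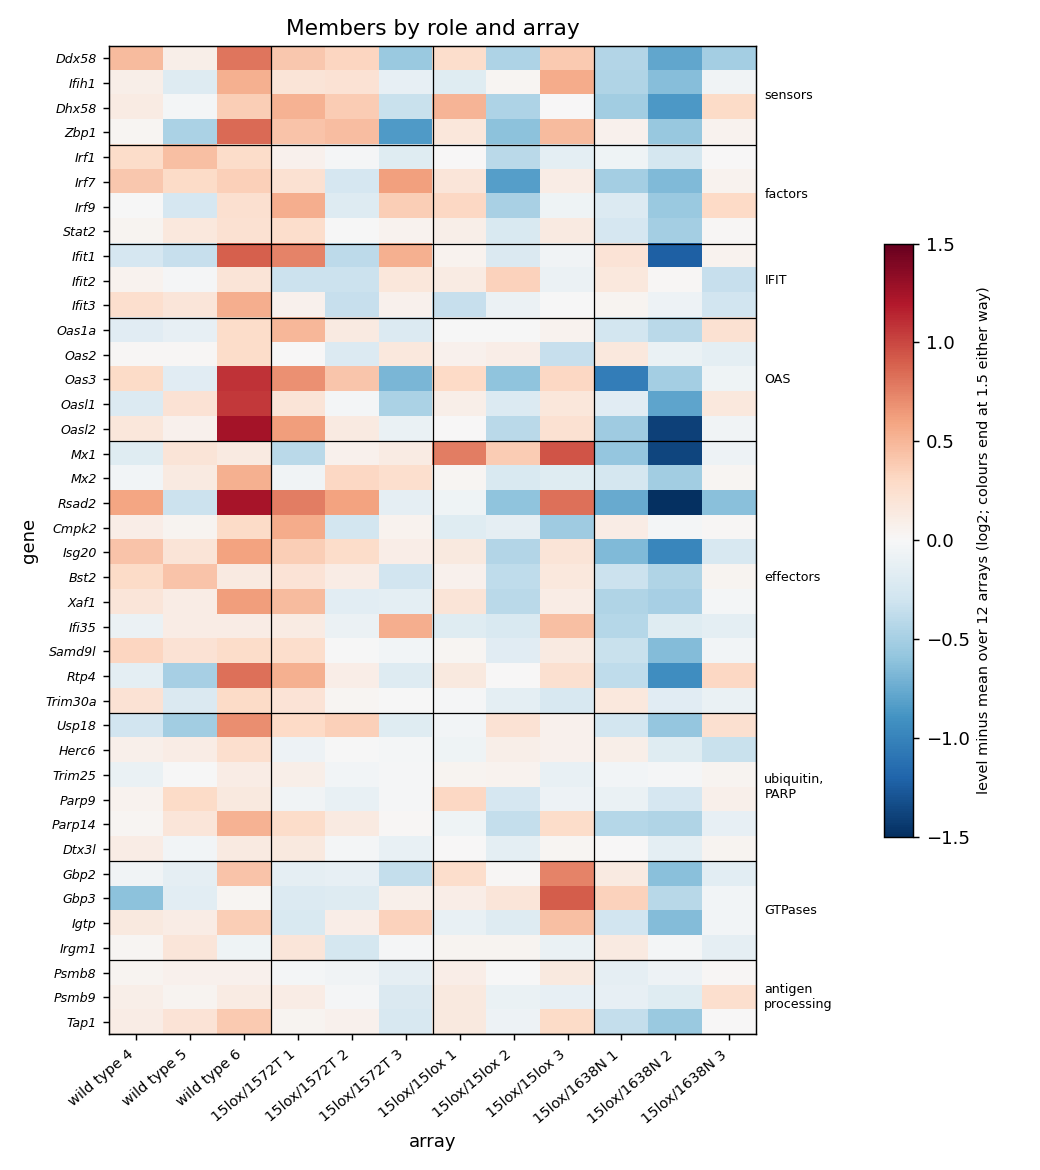
Rows are the 40 members grouped by role and columns the 12 arrays grouped by genotype, with colour showing the log2 level minus the gene's mean over the 12 arrays. Red fills most of the wild-type array 6 column and blue most of the column of 15lox/1638N array 2, while Mx1 and Gbp3 are above their means on all 3 arrays of 15lox/15lox.

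In 15lox/1638N cells 39 of 40 members averaged below wild type, as did 57.2% of all genes, and Isg20 and Samd9l fell past the threshold, an adjusted p under 0.05 over all genes. These 2 are 5% of the members, where 2.4% of all genes were called lower and 3.47% were called in either direction, and no member was called higher. At an unadjusted p under 0.05 there were 19 members lower (13.6% of all genes) and 0 higher (6.19% of all genes). The median log2 fold change was -0.41 for the members and -0.03 for all genes. In 16 members all 3 arrays of 15lox/1638N lay below wild-type arrays 4 to 6, as they did for 18.6% of all genes. With all 6 wild-type arrays 15 members were called lower, against 10% of all genes, and the median was -0.40. Leaving out array 4 or 6 of wild type, or array 1 or 2 of 15lox/1638N, left 0 called members by limma, where 1.2% to 1.42% of all genes were called. It left 1 when array 5 of wild type, 1 of 15lox/15lox or 2 of 15lox/1572T was dropped (1.34% to 2.84% of all genes). It left 4 when array 2 of 15lox/15lox or 3 of 15lox/1638N was (4.83% and 5.28% of all genes).

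**Figure D3:**
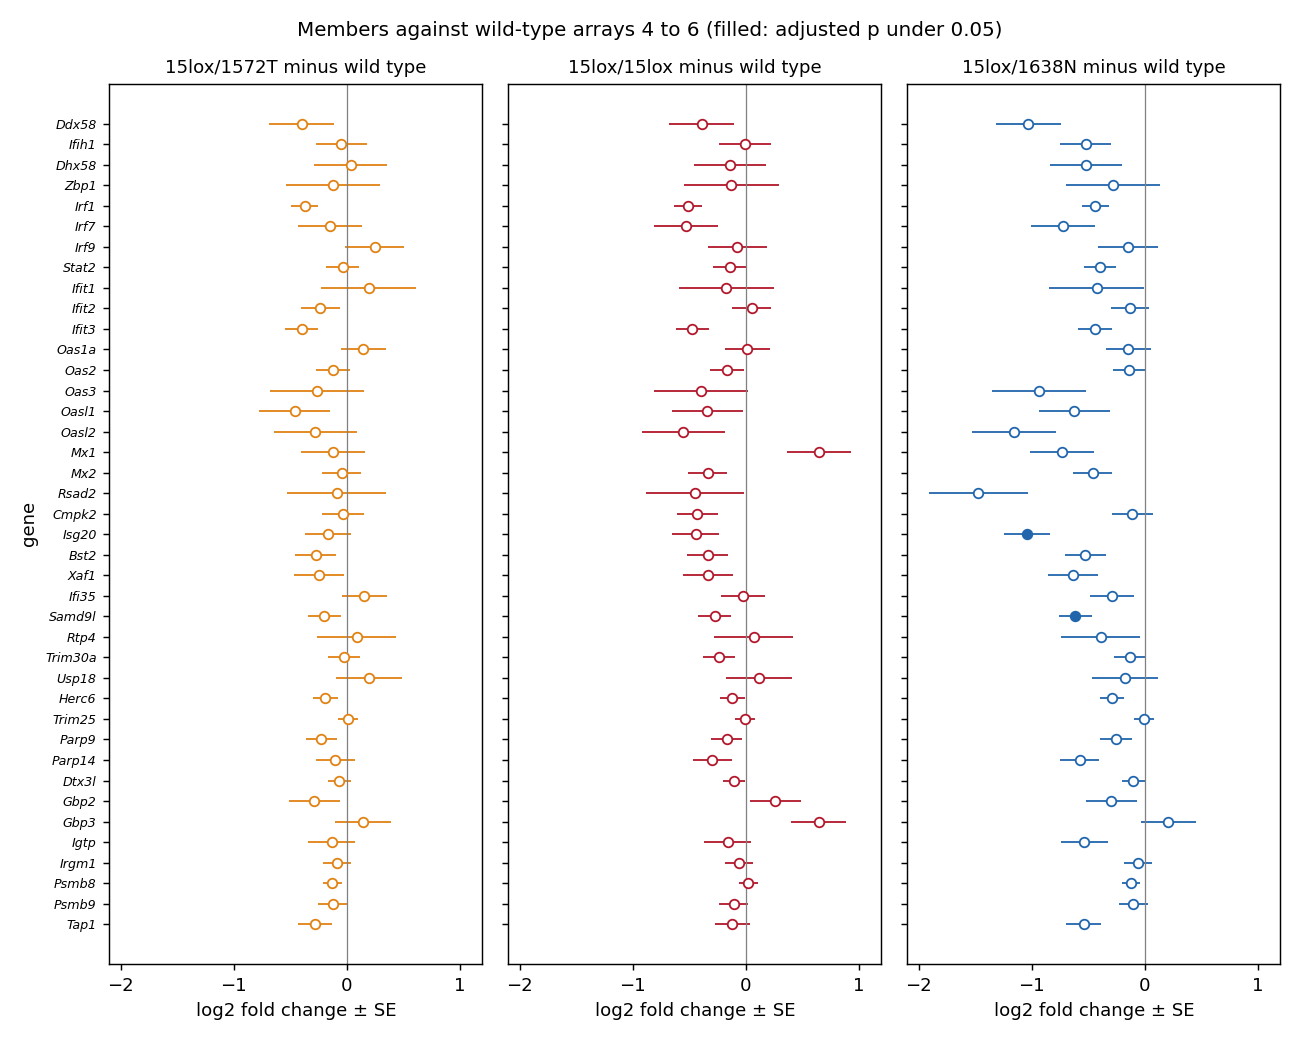
Each panel gives, for the 40 members, the log2 fold change of 1 mutant genotype against wild-type arrays 4 to 6 with its SE. Filled points passed an adjusted p under 0.05: Isg20 and Samd9l in 15lox/1638N, and none in the other panels.

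Isg20, an exonuclease that degrades viral RNA, had the lowest p among the members. It read 10.54, 10.31 and 10.72 on wild-type arrays 4 to 6 and 9.45, 9.13 and 9.87 in 15lox/1638N, so the groups did not overlap. The decrease was 2.06-fold (log2 fold change -1.04 ± 0.21, SE, adjusted p = 0.0211), and its level in 15lox/1572T was 10.48, 10.39 and 10.21, close to wild type. In 15lox/15lox it read 10.26, 9.68 and 10.30, below every control array but with array 2 well under the other two (log2 fold change -0.44, adjusted p = 0.422). Dropping a single array ended the call in 15lox/1638N in 4 cases: array 4 (adjusted p = 0.0771) or 6 (0.0903) of wild type, and array 1 (0.0763) or 2 (0.0902) of 15lox/1638N. Without any 1 array the log2 fold change stayed between -1.23 and -0.86, and without wild-type array 6 and 15lox/1638N array 2 together it was -0.77 (adjusted p = 0.257).

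Samd9l, an antiviral factor that restrains translation and is known as a brake on myeloid growth, read 11.93, 11.82 and 11.88 in wild type. In 15lox/1638N it read 11.27, 10.96 and 11.56, each under the control range, which was narrow. It fell 1.53-fold (log2 fold change -0.61 ± 0.15, SE, adjusted p = 0.0443). In 15lox/1572T the values were 11.87, 11.60 and 11.57 and in 15lox/15lox 11.63, 11.44 and 11.74. These were below every control array apart from array 1 of 15lox/1572T. Only array 2 of 15lox/15lox lay within the range of 15lox/1638N. This call is weaker than that of Isg20: it ended without any 1 of the control arrays (adjusted p from 0.101 to 0.135), without 15lox/1638N array 1 (0.132) or 2 (0.169), 15lox/15lox array 1 (0.0650) or 15lox/1572T array 2 (0.0596), and with only the 6 arrays compared (0.0586).

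**Figure D4:**
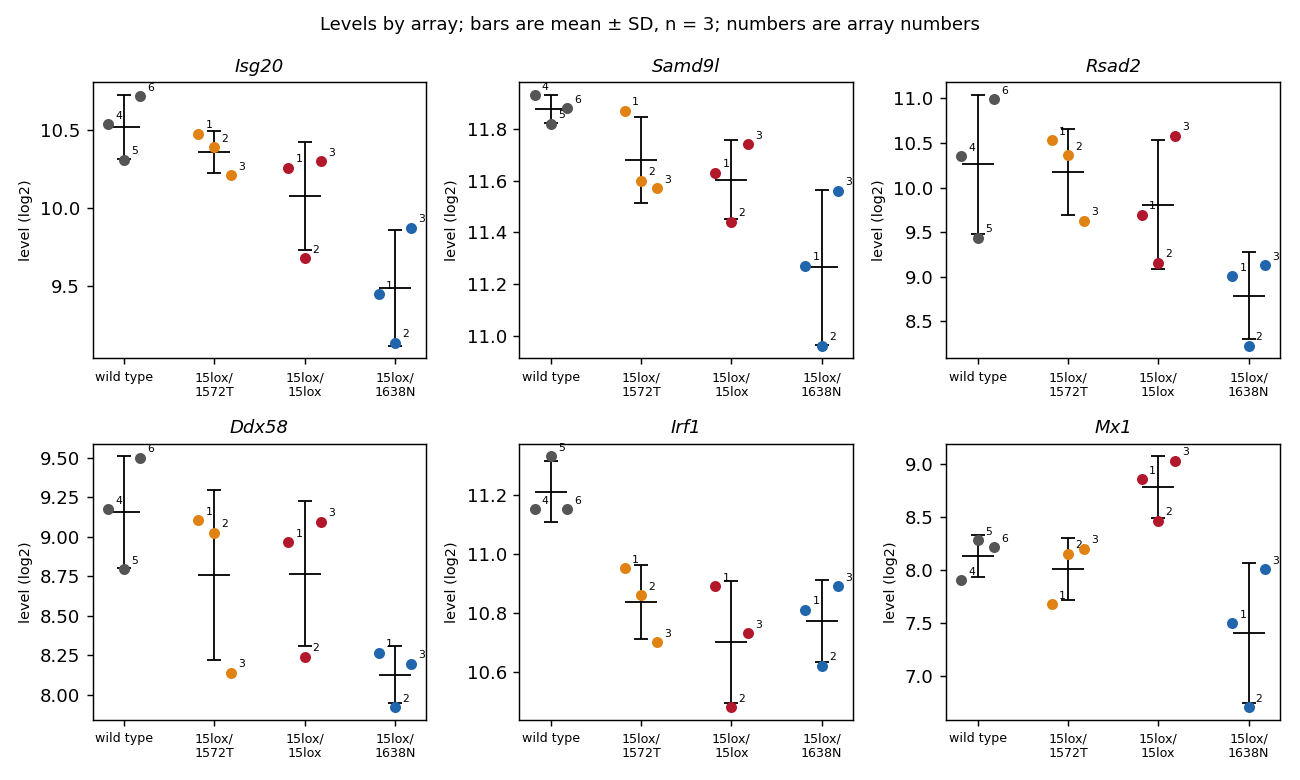
Points are the log2 levels of 6 members on each array, labelled with the array number, with the mean and SD of 3 arrays per genotype. Isg20, Samd9l, Rsad2, Ddx58 and Irf1 lie lower in 15lox/1638N than on wild-type arrays 4 to 6 without overlap, and Mx1 is the only one of the 6 that lies above wild type in 15lox/15lox.

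Among the sensors of viral RNA and DNA, all 4 averaged lower in 15lox/1638N and none passed. Ddx58, which encodes the RNA sensor RIG-I, read 8.80 to 9.50 in wild type and 8.27, 7.92 and 8.20 in 15lox/1638N. Its 2.04-fold difference had an adjusted p of 0.0737, or 0.0150 with all 6 wild-type arrays. Array 3 of 15lox/1572T (8.14) and array 2 of 15lox/15lox (8.24) were as low, while the other arrays of those groups read 8.97 to 9.11. The 2 best-read probe sets of Ddx58 gave log2 fold changes of -1.03 and -0.66. Ifih1, the sensor MDA5, differed by -0.52 ± 0.23 (SE), and the helicase regulator Dhx58 by -0.52 ± 0.32. Zbp1, a sensor of Z-form nucleic acid, had the smallest difference of the 4 (-0.28 ± 0.42), and its wild-type arrays ran from 6.09 to 7.42.

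The 4 transcription factors averaged lower in 15lox/1638N. Irf7, the factor that amplifies type I interferon, read 7.73, 7.61 and 7.68 in wild type and 6.82, 6.66 and 7.38 in 15lox/1638N (log2 fold change -0.72 ± 0.28, adjusted p = 0.184). One array of 15lox/15lox was the lowest of all, since Irf7 read 7.50, 6.49 and 7.43 there, and 15lox/1572T covered both sides with 7.55, 7.08 and 7.94. Stat2 read 9.66, 9.78 and 9.84 in wild type and 9.36, 9.11 and 9.63 in 15lox/1638N, a difference of -0.39 ± 0.14 (adjusted p = 0.155). With all 6 wild-type arrays the adjusted p was 0.0478 for Irf7 and 0.0443 for Stat2. Irf9, their partner, differed by only -0.15 ± 0.26.

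Irf1 stood apart from this pattern, as it was lower in all 3 mutant genotypes and about equally so. Irf1 is a factor that both interferon types induce and that drives antigen-processing genes. It read 11.15, 11.33 and 11.15 on wild-type arrays 4 to 6. The values were 10.95, 10.86 and 10.70 in 15lox/1572T, 10.89, 10.48 and 10.73 in 15lox/15lox, and 10.81, 10.62 and 10.89 in 15lox/1638N. All 9 mutant arrays were below all 6 wild-type arrays, which ran from 11.04 to 11.38. The log2 fold changes were -0.37, -0.51 and -0.44, each with an SE of 0.12, and share the same controls. Adjusted p was 0.431, 0.0550 and 0.0761 in that order, and 0.104, 0.00838 and 0.0146 with all 6 wild-type arrays. Between mutant genotypes Irf1 differed by 0.14 or less, with an SE of 0.12.

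Ifit3, an antiviral protein that binds Ifit1 on viral RNA, followed Irf1 more than the rest. It read 6.42, 6.35 and 6.71 in wild type, 6.23, 5.83 and 6.24 in 15lox/1572T, 5.83, 6.08 and 6.16 in 15lox/15lox, and 6.20, 6.09 and 5.88 in 15lox/1638N. Every mutant array again lay below wild type, with log2 fold changes of -0.40, -0.47 and -0.44 (SE 0.15 each, adjusted p = 0.505, 0.177 and 0.133). With all 6 wild-type arrays the last 2 were called (adjusted p = 0.0245 and 0.0229). Its level is near percentile 37 of all genes, where background adds to the signal. The neighbouring gene Ifit2 did not share this and ranged over 8.96 to 9.65 without separation of the groups. Ifit1, which recognises uncapped viral RNA, read 5.70, 5.61 and 6.85 in wild type and 6.15, 4.72 and 6.01 in 15lox/1638N, so that 1 array in each group set its mean.

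The 2'-5'-oligoadenylate synthetase family, whose active members make the messenger that turns on RNase L, averaged lower in 15lox/1638N for all 5 measured members, and none passed. Oasl2 read 7.67, 7.57 and 8.76 in wild type and 6.97, 6.11 and 7.45 in 15lox/1638N, without overlap (log2 fold change -1.16 ± 0.37, adjusted p = 0.113, or 0.0181 with all 6 wild-type arrays). It read 8.13, 7.63 and 7.41 in 15lox/1572T and 7.51, 7.10 and 7.74 in 15lox/15lox. Both groups thus reached into the range of the others. Oas3 read 8.90, 8.44 and 9.69 in wild type, 9.30, 9.02 and 7.93 in 15lox/1572T, 8.91, 8.01 and 8.93 in 15lox/15lox and 7.58, 8.11 and 8.55 in 15lox/1638N. Oasl1 read 6.98, 7.40 and 8.24 in wild type and 7.01, 6.39 and 7.34 in 15lox/1638N, groups that overlap. Oas1a and Oas2 differed by -0.15 ± 0.20 and -0.14 ± 0.15.

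Rsad2, the radical enzyme viperin, had the widest range of all members, 2.76 over the 12 arrays. It read 10.35, 9.44 and 10.99 in wild type and 9.01, 8.23 and 9.13 in 15lox/1638N, and 10.53, 10.36 and 9.63 in 15lox/1572T. In 15lox/15lox it read 9.69, 9.16 and 10.58, spread over most of the range. Its 2.78-fold difference between 15lox/1638N and wild type was the largest of any member and missed the threshold (log2 fold change -1.47 ± 0.44, adjusted p = 0.0915, or 0.0212 with all 6 wild-type arrays). Another probe set of Rsad2 gave -1.35 and the third, near background, -0.33, and their mean gave -1.05. Leaving out wild-type array 6 and 15lox/1638N array 2 together, a choice made after seeing the data, moved the value to -0.83. Cmpk2, a nucleotide kinase that is the next coding gene to Rsad2, differed by -0.11 ± 0.18 only.

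Mx1 was the member with the clearest difference between mutant genotypes. Mx1 encodes a GTPase that blocks influenza-like viruses and is defective in most laboratory mouse strains. It read 7.91, 8.28 and 8.22 in wild type and 7.68, 8.15 and 8.21 in 15lox/1572T. In 15lox/15lox it read 8.86, 8.47 and 9.03, above every wild-type array, and in 15lox/1638N 7.50, 6.71 and 8.01, with the third of these inside the wild-type range. Neither mutant passed against wild type (0.65 ± 0.28, adjusted p = 0.380, and -0.73 ± 0.28, adjusted p = 0.178). The difference between 15lox/15lox and 15lox/1638N was 2.60-fold and missed the threshold (log2 fold change 1.38 ± 0.28, adjusted p = 0.0699). It passed with all 6 wild-type arrays in the fit (0.0158), which left the fold change as it was, or without 15lox/1638N array 3 (0.0128). Adjusted p was 0.337 with only the arrays of these 2 groups, 0.161 with sex type as a covariate and 0.201 without 15lox/1638N array 2. Other alternatives in which Mx1 passed are listed in the last section. Mx2 read near background, at 4.37 to 5.42.

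Of the remaining effectors, Bst2 (tetherin, which holds budding virions on the cell and also marks plasmacytoid dendritic cells) read 12.81, 12.95 and 12.65 in wild type and 12.20, 12.07 and 12.56 in 15lox/1638N. The log2 fold change was -0.53 ± 0.18 (adjusted p = 0.134). Xaf1, a pro-apoptotic protein, read 9.66, 9.59 and 10.11 in wild type and 9.03, 8.98 and 9.45 in 15lox/1638N (-0.63 ± 0.22, adjusted p = 0.143). Both genes separated the groups, and both were called with all 6 wild-type arrays (adjusted p = 0.0329 and 0.0459). The other groups overlapped 15lox/1638N, with Bst2 at 12.14 to 12.73 and Xaf1 at 9.08 to 9.95. All 11 effectors, Mx1 and Rsad2 included, averaged lower in 15lox/1638N (57.2% of all genes did), and 7 had an unadjusted p under 0.05 (13.6% of all genes were lower at that level).

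Among the 6 measured genes of ubiquitin-like conjugation and ADP-ribosylation, Parp14 differed most in 15lox/1638N. Parp14, a mono-ADP-ribosyltransferase, read 10.79, 10.94 and 11.28 in wild type and 10.33, 10.31 and 10.64 in 15lox/1638N (log2 fold change -0.58 ± 0.17, adjusted p = 0.0927, or 0.0134 with all 6 wild-type arrays). Its 15lox/1572T arrays read 11.04, 10.89 and 10.78 and those of 15lox/15lox 10.69, 10.40 and 11.03. Its neighbours Dtx3l, a ubiquitin ligase, and Parp9, the partner of Dtx3l, differed by -0.10 and -0.25. Trim25, the ubiquitin ligase that activates RIG-I, was the least variable member over the 12 arrays, with a range of 0.22 at a mean level of 13.08. Usp18, the protease that removes Isg15 and damps the receptor, read 9.19, 8.96 and 10.18 in wild type and overlapped in every group.

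The GTPases of the guanylate-binding and immunity-related families, induced mainly by type II interferon, did not move as one. Igtp read 10.42, 10.39 and 10.64 in wild type and 9.98, 9.62 and 10.24 in 15lox/1638N (log2 fold change -0.53 ± 0.21, adjusted p = 0.176, or 0.0400 with all 6 wild-type arrays). Gbp3 was the 1 member that averaged above wild type in 15lox/1638N (0.21 ± 0.25). In 15lox/15lox Gbp3 read 9.90, 9.97 and 10.71 against 9.19, 9.64 and 9.82 in wild type, higher without overlap but short of the threshold (0.65 ± 0.25, adjusted p = 0.290). Array 3 held the top value there, as it did for Gbp2 at 9.18, from which Gbp3 is separated by 1 coding gene.

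Antigen-processing genes were high in all cells. Tap1, a subunit of the peptide transporter that loads MHC class I, read 12.37, 12.46 and 12.65 in wild type and 11.90, 11.70 and 12.26 in 15lox/1638N (log2 fold change -0.54 ± 0.15, adjusted p = 0.0801, or 0.0106 with all 6 wild-type arrays). In 15lox/1572T it read 12.30, 12.32 and 12.02 and in 15lox/15lox 12.40, 12.18 and 12.54. Its neighbours Psmb8 and Psmb9, the immunoproteasome subunits, differed by -0.12 ± 0.08 and -0.10 ± 0.13 in 15lox/1638N, far less than Tap1 in value, although the difference between these genes was not tested.

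In 15lox/15lox cells no member passed the threshold, where 2.55% of all genes were called. At an unadjusted p under 0.05 limma gave 3 members lower (Irf1, Ifit3 and Cmpk2; 7.77% of all genes) and 2 higher (Mx1 and Gbp3; 4.35% of all genes). No overlap with the controls was seen for 6 members below (12.1% of genes) and 2 above (6.13%). The median log2 fold change was -0.15, with 32 members below 0, against -0.05 for all genes, of which 62.5% were below 0. With all 6 wild-type arrays Irf1 and Ifit3 were called, 5% of members, where 3.66% of genes were called lower. In 15lox/1572T cells 0 members passed by limma, where 0.11% of all genes did, and 2 had an unadjusted p under 0.05, Irf1 and Ifit3, both lower (5.86% of genes). The median was -0.12, with 31 members below 0 (57.2% of genes) and 6 below the controls without overlap (9.91% of genes). With all 6 wild-type arrays there were still 0 calls, where 1.08% of genes were called.

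Between mutant genotypes no member passed in any of the 3 comparisons. Relative to 15lox/1572T, 15lox/1638N cells had 35 of 40 members below 0 (52.4% of genes), with a median of -0.33. Lower at an unadjusted p under 0.05 were 9 members (5.5% of genes), and 0.352% of all genes were called after adjustment. Isg20 had the lowest adjusted p there (-0.88 ± 0.21, adjusted p = 0.163), followed by Rsad2 (-1.39 ± 0.44, adjusted p = 0.375). Relative to 15lox/1638N, 15lox/15lox cells had 7 members below 0 (51.7% of genes) and 33 above, with a median of 0.25. Higher at an unadjusted p under 0.05 were 8 members (6.84% of genes), and 0.418% of genes were called after adjustment. Between 15lox/15lox and 15lox/1572T the median was -0.07, and 2 members were higher at an unadjusted p under 0.05, Mx1 and Gbp2 (5.45% of genes), where 1.63% of genes were called after adjustment.

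Genes that make and sense interferon were examined beside the members. The ligands were at the bottom of the scale: Ifnb1 read 4.36 to 4.96, Ifna4 4.14 to 4.54 and Ifng 4.90 to 5.32 over the 12 arrays, and none of 4 measured ligands passed in any comparison. The receptor subunits Ifnar1 (10.90 to 11.60) and Ifnar2 (10.80 to 11.70) were well expressed and did not pass in any comparison, and neither did Jak1, Tyk2 or Ifngr1. Tyk2 came closest, at -0.51 ± 0.14 in 15lox/1638N (adjusted p = 0.0719). Ifngr2, the signalling subunit of the type II receptor, was the exception of the 8 receptors and kinases. It read 9.09, 9.27 and 8.93 in wild type, 9.86, 9.78 and 9.78 in 15lox/15lox, 9.81 to 10.14 in 15lox/1638N and 9.63, 9.40 and 9.46 in 15lox/1572T. It rose by 0.71 ± 0.11 in 15lox/15lox (adjusted p = 0.0051) and by 0.88 ± 0.11 in 15lox/1638N (adjusted p = 0.0021), opposite in sign to most members.

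Inhibitors and sensors upstream of interferon were lower in 15lox/1638N in part, where 2.4% of all genes were called lower. Of 6 negative regulators 2 averaged below wild type, with a list median of 0.04. Both fell and 0 rose: the cytokine inhibitor Socs3 (log2 fold change -1.34 ± 0.32, adjusted p = 0.0447) and the phosphatase Ptpn6 (-0.46 ± 0.10, adjusted p = 0.0328), while Socs1 differed by 0.15. Of 10 measured sensing genes 2 fell and 0 rose: Tlr7, the endosomal receptor for single-stranded RNA (-1.497 ± 0.35, adjusted p = 0.0401), and the adaptor Ticam1 (-0.63 ± 0.13, adjusted p = 0.0267). Of 44 other interferon-inducible genes outside the members, Irgm2 (-0.88 ± 0.18, adjusted p = 0.0234) and Uba7, the activating enzyme of Isg15 (-0.76 ± 0.18, adjusted p = 0.0427), fell, which is 2 of 44 and to be read against the same 2.4%. None rose, and the median was -0.10. In both other mutant genotypes 0 of these 44 passed by limma. At an unadjusted p under 0.05, 11 were lower and 1 higher in 15lox/1638N (13.6% and 6.19% of all genes). In 15lox/15lox 5 were lower and 2 higher (7.77% and 4.35% of all genes). In 15lox/1572T 1 was lower (5.86% of all genes) and 1 higher.

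The genes whose levels over the 12 arrays were most like the mean of the members were not members of these lists. The 10 highest correlations among the other genes were those of Pbxip1 (0.96), Zbtb4 (0.96), Crebrf (0.95), Rsph9 (0.95), Cds2 (0.95), Cyp4v3 (0.95), Smpdl3a (0.95), Zfp688 (0.95), Pcmtd2 (0.94) and H2bc21 (0.94). Within groups, after each group's mean was removed, Pbxip1 still had 0.96 and H2bc21 0.90. Among the 50 most similar genes, Ifi27 (0.93) was the 1 from the list of other interferon-inducible genes, and the receptor chain Il10rb (0.93) was also there. These values rest on 12 arrays, and the source of the correlation was not tested.

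Some markers of other cell types differed between genotypes in the same samples, and others of the same lists did not. The mean level of 9 plasmacytoid dendritic cell markers, cells known for high Irf7 and Bst2, ran from 8.68 to 9.13 on wild-type arrays, 7.67 to 8.43 in 15lox/1572T, 7.66 to 8.06 in 15lox/15lox and 7.45 to 7.77 in 15lox/1638N. Of these 9 markers 3 were called lower in 15lox/1638N, 4 in 15lox/15lox and 1 in 15lox/1572T. In the same order 3.47%, 2.55% and 0.11% of all genes were called in either direction. Ccr9 differed by -2.92 and -2.68 in the first 2 genotypes, and by -1.89, short of the threshold, in the last. In 15lox/15lox Tcf4 (-0.00), Klk1 (-0.01) and Cd209d (-0.02) hardly differed from wild type. Siglech, a defining marker, read 7.13, 8.39 and 6.84 on wild-type arrays 4, 5 and 6. The mean of 7 monocyte markers ran from 9.54 to 9.64 in wild type and was higher in every mutant. It was 10.16 to 10.55 in 15lox/1638N, 10.04 to 10.84 in 15lox/15lox and 9.98 to 10.36 in 15lox/1572T. In that order 4, 3 and 1 of them were called higher, to be read against the same shares of all genes. In each mutant genotype 2 of the 7 averaged below wild type. In 15lox/15lox these were Csf1r (-0.35) and Adgre1 (-0.12). The mean of 7 B cell markers was 7.15 to 7.45 in wild type, 6.42 to 6.78 in 15lox/1638N, 6.53 to 6.99 in 15lox/15lox and 6.94 to 7.11 in 15lox/1572T. The mean of 9 T and natural killer cell markers was 7.04 to 7.20 in wild type, 6.61 to 6.62 in 15lox/1638N, 6.48 to 6.69 in 15lox/15lox and 6.67 to 6.80 in 15lox/1572T. Of the B cell markers 2, 1 and 0 were called lower in 15lox/1638N, 15lox/15lox and 15lox/1572T. Of the T and natural killer cell markers 2 were called lower in each. The means of 9 neutrophil, 7 erythroid and megakaryocyte, 6 mast cell and 10 stem and progenitor cell markers overlapped between 15lox/1638N and wild type, although Prtn3 of the neutrophil list rose. The part of these cells in the members' levels was not tested, and in bulk samples fewer cells of a type and less RNA per cell cannot be told apart.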

How the data were processed

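The authors deposited probe set values on a log2 scale, as read from their range since no header names the unit. RMA and build mm9 are named in the submitters' processing notes without a role, and background correction is not given in the sources used here. Of 45101 probe sets, 34958 carried 1 gene symbol, 932 several and 9211 were not listed. The probe set of highest mean over 15 arrays stood for each of 18194 genes, with no filter. Models used lmFit and eBayes of limma 3.58.1 (R 4.3.3) over 12 arrays, with 8 residual degrees of freedom. Contrasts were two-sided, with Benjamini-Hochberg adjustment over all genes and a threshold of 0.05. The members, gene lists, tests and the naming rule were chosen with earlier results of these data known. Every member may be named. Array values are given for members past the threshold in any contrast or against all 6 wild-type arrays, and for the 6 of widest range. From other lists, up to 4 members past the threshold in a contrast and a few pathway genes (Ifnar1, Ifnar2, Ifngr1, Jak1, Tyk2, Socs1) are given. Apc and Axin2 check the genotypes. Also named, after their values were seen, were Ifnb1, Ifna4, Ifng, Ccr9, Siglech, Tcf4, Klk1, Cd209d, Csf1r, Adgre1, Cd34, Kit and Prtn3. Female type was read from Xist. On simulated data for 15lox/1638N against wild type over 18194 genes, the test found 47.8% of 1.5-fold, 85.1% of 2-fold and 98.5% of 4-fold changes, with 6 false calls. The changed genes were drawn at random from all genes, whose median SD within groups was 0.16, against 0.27 for the members. These shares therefore do not describe the members, for which a change of the same size is harder to find. Alternatives covered the controls, arrays fitted, eBayes options, array weights, probe set choice, a level filter, normalization, sex, the replicate number as a block and each array left out.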

Additional observations from a re-analysis of the deposited data

Results flagged for a closer look

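Among the levels of the 40 members and their median over the 6 wild-type arrays, Cmpk2 on wild-type array 6, at 7.57, stood apart from the other 5, which ran from 7.33 to 7.39. For independent values chance sets about 1 in 20 groups apart in this way, and 41 were looked at. That rate does not hold here, since the values of wild-type arrays 1 to 3 are not independent of the rest. Cmpk2 was the 1 member with identical values on these 3 arrays (7.385 on each), which narrowed the range of the other 5.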

How the results depend on the processing

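No direction changed among the 45 differences of single members that had an unadjusted p under 0.05 or were called with all 6 wild-type arrays, over up to 24 alternatives. These were selected by p. Over all 40 members the sign changed in at least 1 alternative for 14 in 15lox/15lox, 12 in 15lox/1638N and 22 in 15lox/1572T against wild type. Of the 977 recomputed values of the 45 differences 918 kept their side of the threshold, 14 lost it and 45 gained it. In the counts that follow, brackets give the share of all genes called in either direction under the same setting. Called members in 15lox/15lox against wild type numbered 0, but 2 with all 6 wild-type arrays (6.59%). There was 1 with array weights (4.53%), the mean over probe sets (2.67%) or a threshold of 0.1 (3.4%), and 0 to 1 without 1 array (1.6% to 2.81%). In 15lox/1638N against wild type the 2 calls became 15 with all 6 wild-type arrays (14.1%), 14 with array weights (15.8%) and 7 at a threshold of 0.1 (7.12%). They became 1 with every probe set on its own (2.1% of probe sets) and 0 to 4 without 1 array (1.2% to 5.28%). Without wild-type array 6 and 15lox/1638N array 2 together, an alternative chosen after seeing the data, 0 were called (0.594%). Between 15lox/15lox and 15lox/1638N, 1 member (Mx1) was called with all 6 wild-type arrays (0.945%), with trend and robust options (0.621%) or with array weights (0.945%). The same held with the replicate block (0.61%) or at a threshold of 0.1 (0.764%), and there were 0 to 1 calls without 1 array (0.154% to 0.929%). Between 15lox/1638N and 15lox/1572T, 1 member (Isg20) was called with all 6 wild-type arrays (0.682%) or with array weights (0.687%). The cause of these changes in calls was not tested. Adding wild-type arrays 1 to 3 raised the residual degrees of freedom, but these arrays are not independent of arrays 4 to 6. The counts with all 6 thus treat dependent arrays as replicates. The other 2 comparisons had 0 calls throughout. The replicate block needed all 15 arrays, since wild-type arrays 4 to 6 share no number with the mutant arrays. It gave 3 called members in 15lox/1638N against wild type (5.16%). Same-numbered arrays had correlated deviations of -0.15 to 0.38. Pairs of arrays numbered 2 ran from 0.21 to 0.37, wild-type array 2 included. Between 15lox/15lox and 15lox/1638N the pairs had 0.08, 0.37 and 0.38. An effect shared by arrays of the same number on the members was not tested. Only between 15lox/15lox and 15lox/1572T were all 3 pairs over 0.1 (0.14 to 0.21), where the block gave 0 calls. For the other comparisons the numbers were not taken to pair samples. The median of the members on each array moved by less than 1 SD of its group under each of 3 alternatives.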
